A study of Rattus norvegicus with 4 samples.

Results

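A list of 7 genes linked to glucocorticoid signalling was followed by symbol across the cell classes of the rat nucleus accumbens: Fkbp5, Sgk1, Per1, Tsc22d3, Zbtb16, Nr3c1 and Nr3c2. Of these 7 symbols, 6 were matched among 30560 listed genes, and Tsc22d3 was not analysed here. The list was drawn from gene function, not from a threshold on measured values, though earlier results of these data were known when it was chosen. Raw UMIs (unique molecular identifiers, each a captured RNA molecule) were summed per library and cell class, so that glia and neurons could be set side by side and cocaine compared with saline.

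Nuclei came from adult Sprague-Dawley rats aged 90 to 120 days, injected intraperitoneally with either saline or cocaine at 20 mg/kg on each of 7 days, with open field tracking after injection. Tissue was collected 1 hour after the last injection with a 2 mm punch around the core of the accumbens. There were 4 libraries, a female pair and a male pair with 1 saline and 1 cocaine library each, and each library combined tissue of 4 rats, 16 in all. Where 4 values follow each other, the female pair comes first, and within a pair saline comes before cocaine. All 4 libraries came from injected rats, so a saline value is a value after a saline injection.

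Glucocorticoids (corticosterone in rats) enter cells and bind the glucocorticoid receptor, encoded by Nr3c1, and the mineralocorticoid receptor, encoded by Nr3c2. The bound receptor moves to the nucleus and changes the transcription of target genes. Fkbp5 encodes a co-chaperone of the receptor and is itself induced by it, which closes a feedback loop. Zbtb16 encodes a zinc finger transcription factor, Sgk1 a kinase that controls ion transport, and Per1 a repressor of the circadian clock. All of these are known glucocorticoid targets, and both Per1 and Sgk1 also respond to other stimuli. Injection and handling raise corticosterone in rats in general, and cocaine does so as well.

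The libraries held 31484217 to 40737786 UMIs in 6213 to 7265 barcodes. After filters and removal of likely doublets, 24843 nuclei remained in 23 clusters, and pairs of libraries shared 10 to 18 barcode sequences. Clusters were named from marker genes, with the ending "-like" because no deposited annotation was used, and 5 clusters with 707 nuclei stayed unnamed. Of the named classes, 11 had at least 25 nuclei in every library and were tested. One of them is called Kit/Pthlh-led, after its leading genes, since Pvalb was not among the symbols and only 2 markers of that class were detected. Eif2s3y and Kdm5d, genes of the Y chromosome, had 1 to 3 UMIs in female and 1895 to 2306 UMIs in male libraries. In sums of nuclei, fewer cells of a state and less RNA per cell cannot be told apart.

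No promoter sequence was available for Zbtb16, which passed the test for cocaine in 1 glial class. The promoter of Fkbp5 is shown because Fkbp5 passed that test in 2 glial classes. These are the 250 bases before a RefSeq transcript start (build GRCr8, chr20:6543556-6543805, minus strand), in lower case throughout because none of the motifs searched was found:
Fkbp5: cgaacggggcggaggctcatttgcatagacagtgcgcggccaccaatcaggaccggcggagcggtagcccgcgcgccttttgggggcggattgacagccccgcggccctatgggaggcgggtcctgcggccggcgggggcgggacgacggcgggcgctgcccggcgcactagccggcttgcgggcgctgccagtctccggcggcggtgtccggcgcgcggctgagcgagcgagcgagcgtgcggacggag
The motifs, searched on both strands, were the glucocorticoid response half-site AGAACA (its complement is TGTTCT), an inverted repeat of this half-site with 3 bases between, the cyclic AMP response half-site TGACG, the full cyclic AMP response element TGACGTCA, which contains that half-site, and the E-box CACGTG. Among 33469 RefSeq windows of this length, 17.5% held the AGAACA half-site, 0.012% the inverted repeat, 18.2% TGACG, 1.59% TGACGTCA and 5.59% CACGTG. The 3 windows of Sgk1 and the 1 of Per1 held none of them either. One of the 3 windows of Tsc22d3 held TGACG at 75 and again at 65 bases before the start. Nr3c2, like Zbtb16, had no window, and windows of Nr3c1 are not described here. A missing match says only that these letters are not in the window. Of the bases in the Fkbp5 window, 76% were G or C, against 39.2%, 49.6% and 69.6% in the windows of Sgk1 and 49.2% in that of Per1.

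**Figure D1:**
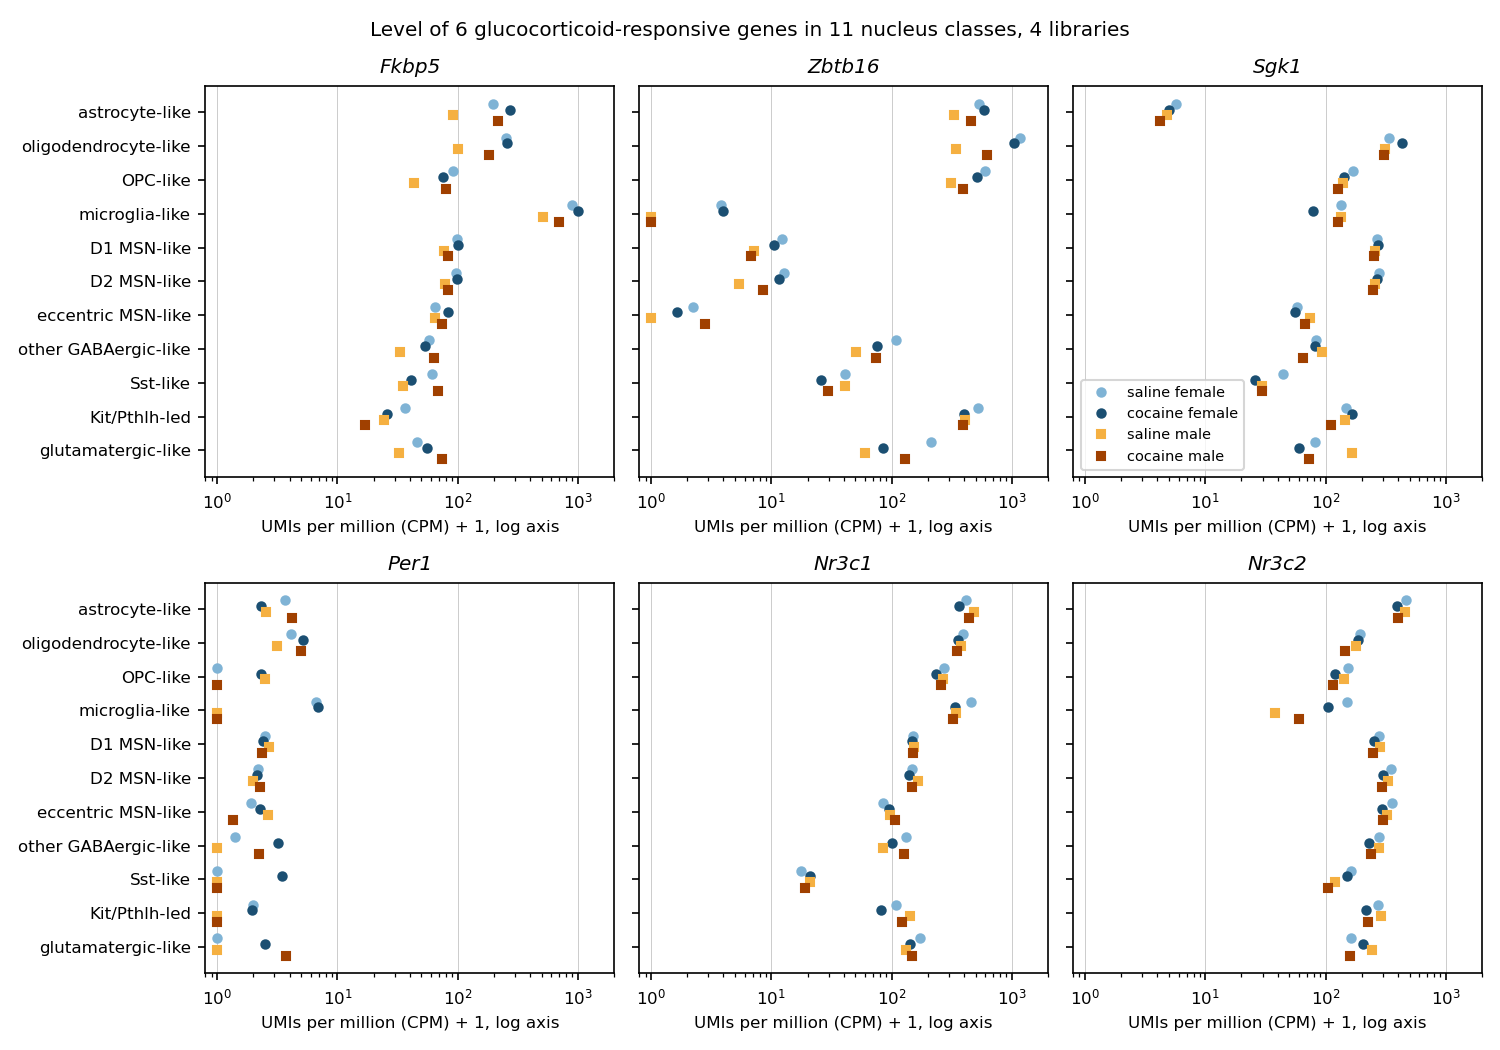
Level of each of the 6 genes (x axis, CPM plus 1, log axis) in 11 nucleus classes (y axis), with 1 point per library, circles for female and squares for male libraries. Fkbp5 was highest in microglia-like nuclei, Zbtb16 ran from 0 to 1173 CPM between classes, and Per1 reached at most 5.93 CPM.

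Levels are given as CPM, a gene's UMIs set against all UMIs of the same class and library and scaled within each class by TMM (trimmed mean of M-values), and are compared between classes for 1 gene at a time. Both receptor genes were present in every class. Nr3c1, the glucocorticoid receptor, was highest in glia after saline. Its 2 saline libraries (female first, then male) had 417 and 479 CPM in astrocyte-like, 459 and 342 in microglia-like and 391 and 379 in oligodendrocyte-like nuclei, and these ranges overlapped. Oligodendrocyte precursor (OPC)-like nuclei followed with 271 and 269 CPM, below all other glia. Neurons were lower, from 147 and 165 CPM in D2 medium spiny neuron (MSN)-like nuclei to 16.7 and 19.9 in Sst-like nuclei, the interneurons marked by somatostatin. D1 MSN-like nuclei, with 149 and 153 CPM, lay within the range of the D2 MSN-like ones.

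Nr3c2, the mineralocorticoid receptor, was likewise highest in astrocyte-like nuclei, at 470 and 461 CPM after saline, above the range of every other class. The spiny neurons came next, with 348 and 330 CPM in D2 MSN-like, 356 and 322 in eccentric MSN-like and 279 and 284 in D1 MSN-like nuclei. Oligodendrocyte-like nuclei had 192 and 178 CPM and Sst-like nuclei, the lowest neurons, 163 and 120 CPM, and microglia-like nuclei, the lowest by mean, had 151 and 37.4 CPM from 53 and 7 UMIs. The order of classes therefore differed between the receptors, with oligodendrocyte-like nuclei above MSN-like nuclei for Nr3c1 and below them for Nr3c2.

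Fkbp5 stood far highest in microglia-like nuclei, at 894 CPM in the saline female and 507 in the saline male library. The next classes were oligodendrocyte-like nuclei with 250 and 99.3 CPM and astrocyte-like nuclei with 197 and 89.8 CPM, whose ranges overlapped. D1 MSN-like (98.7 and 76.4 CPM) and D2 MSN-like nuclei (96.1 and 77.3 CPM) came next, with ranges that overlapped that of the astrocyte-like ones from below. The lowest class was the Kit/Pthlh-led cluster, with 35.8 and 23.3 CPM.

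Zbtb16 levels differed widely between classes. Oligodendrocyte-like nuclei had 1173 and 343 CPM, Kit/Pthlh-led nuclei 518 and 403, OPC-like nuclei 597 and 313 and astrocyte-like nuclei 533 and 331, and these 4 classes overlapped. Spiny neurons had little, with 11.2 and 6.17 CPM in D1 MSN-like nuclei. In eccentric MSN-like nuclei there were 4 and 0 UMIs, where 0 allows up to 0.98 CPM, and in microglia-like nuclei 1 and 0 UMIs.

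Sgk1 was highest in oligodendrocyte-like nuclei (339 and 312 CPM after saline), followed by D2 MSN-like (279 and 256 CPM) and D1 MSN-like nuclei (265 and 257 CPM), which overlapped. Astrocyte-like nuclei stood at the other end, with 4.67 and 3.84 CPM from 7 and 5 UMIs. Per1 gave few UMIs anywhere. D1 MSN-like nuclei, the class with the most UMIs in all, held 13 to 18 Per1 UMIs per library, or 1.38 to 1.71 CPM, and the highest single value in the 11 tested classes was 5.93 CPM from 2 UMIs in microglia-like nuclei. Each class overlapped the next in the order of Per1 levels.

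The first comparison asked whether the genes differed after cocaine. The members gave 66 pairs of gene and class, of which 52 passed the filter on low counts and were tested with edgeR's quasi-likelihood test, with sex as a covariate and Benjamini-Hochberg adjustment over all genes of a class. Past an adjusted p of 0.05 were 3 pairs, all higher after cocaine and all in glia: Fkbp5 in astrocyte-like nuclei, and Fkbp5 and Zbtb16 in oligodendrocyte-like nuclei. The other 49 did not pass, and 12 of the 52 had an unadjusted p under 0.05. Between 2.61% and 10.8% of all genes tested had such a p, depending on the class. Of all genes tested, 1.37% passed in astrocyte-like and 1.27% in oligodendrocyte-like nuclei. The share was 0.362% in microglia-like, 0.0238% in OPC-like, 0.0174% in eccentric MSN-like, 0.542% (D1) and 0.22% (D2) in the other spiny neuron classes, 0.441% in Sst-like and 1.82% in Kit/Pthlh-led nuclei. It was 0% in glutamatergic-like and other GABAergic-like nuclei, where edgeR gave 225 of 8630 and 479 of 12125 genes an unadjusted p under 0.05 and DESeq2 passed 0 genes. DESeq2 passed 0 of the 52 member pairs, 1 of them at an unadjusted p under 0.05. Each group has 2 libraries, so an exact permutation test of a single gene that ignores the pairing by sex could not go below p = 0.333, two-sided. A permutation within the pairs has fewer arrangements and a higher floor.

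**Figure D2:**
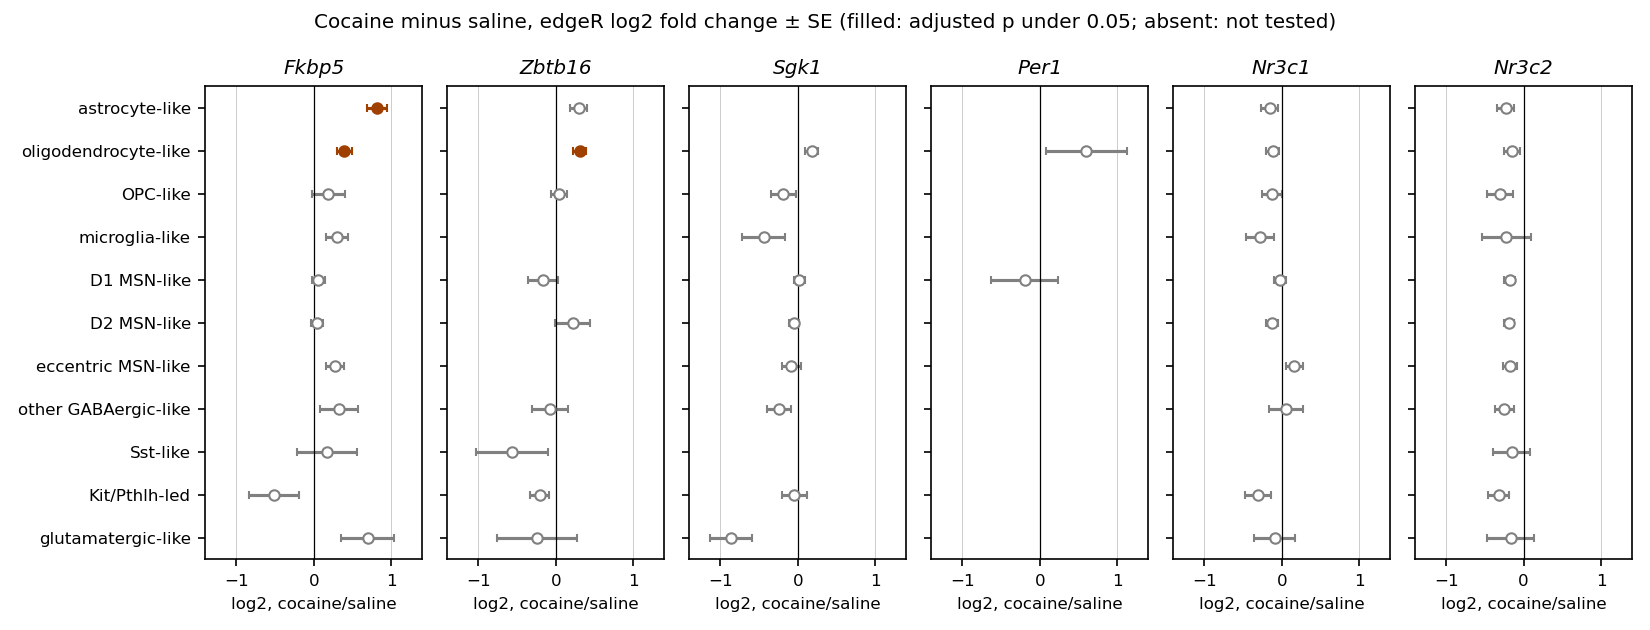
Difference between cocaine and saline for each gene (x axis, log2 fold change ± SE of the edgeR fit, n = 2 libraries per group) in each class (y axis). The 3 filled points passed an adjusted p of 0.05, Fkbp5 in astrocyte-like nuclei at 0.81 and Fkbp5 and Zbtb16 in oligodendrocyte-like nuclei at 0.40 and 0.31, and Nr3c2 lies left of 0 in all 11 classes without passing.

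Fkbp5 in astrocyte-like nuclei was 197 CPM with saline and 274 CPM with cocaine in females, and 89.8 and 217 CPM in males, from 295, 412, 117 and 272 UMIs. Both cocaine libraries lay above both saline libraries. Fkbp5 rose 1.76-fold (log2 0.81, SE 0.13, edgeR adjusted p = 1.31e-07). Within the sexes, each with 1 library per treatment, the log2 ratio was 0.48 in females (95% counting interval 0.26 to 0.70) and 1.27 in males (0.95 to 1.60). With every nucleus thinned to 1000 UMIs, the share of astrocyte-like nuclei with an Fkbp5 UMI was 13.6% with saline and 20.0% with cocaine in females, and 8.43% and 20.0% in males. Without thinning these shares were 36.1%, 46.0%, 15.9% and 33.5%, at median depths of 3494, 3216, 2902 and 2598 UMIs. No class lacked Fkbp5, and in the Kit/Pthlh-led class, the lowest, the thinned shares were 0.935% to 4.05% at median depths of 5028 to 7830 UMIs.

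Other markers moved in the same nuclei. The 8 general MSN markers were all detected in every astrocyte-like sum, and their sums were 782 CPM (female) and 743 CPM (male) with saline and 1258 and 1136 CPM with cocaine, against 7454 to 7895 CPM in D1 MSN-like sums. Fkbp5 itself was lower in D1 MSN-like than in astrocyte-like nuclei in all 4 libraries, most closely in the saline male one, with 76.4 against 89.8 CPM. Microglial markers, of the class highest in Fkbp5, summed to 6.63 to 11.4 CPM in astrocyte-like nuclei, with 2 to 4 of the 9 at 0, against 12090 to 13580 CPM in microglia-like sums. The part of the MSN markers in the Fkbp5 result, and in the other calls of this class, was not tested. The call was lost without the cocaine female, the cocaine male or the saline male library (log2 0.60, 0.92 and 0.33), and held without the saline female library (1.46). These fits had no sex covariate, and no covariate with all 4 libraries also ended the call (log2 0.77, edgeR adjusted p = 0.827).

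**Figure D3:**
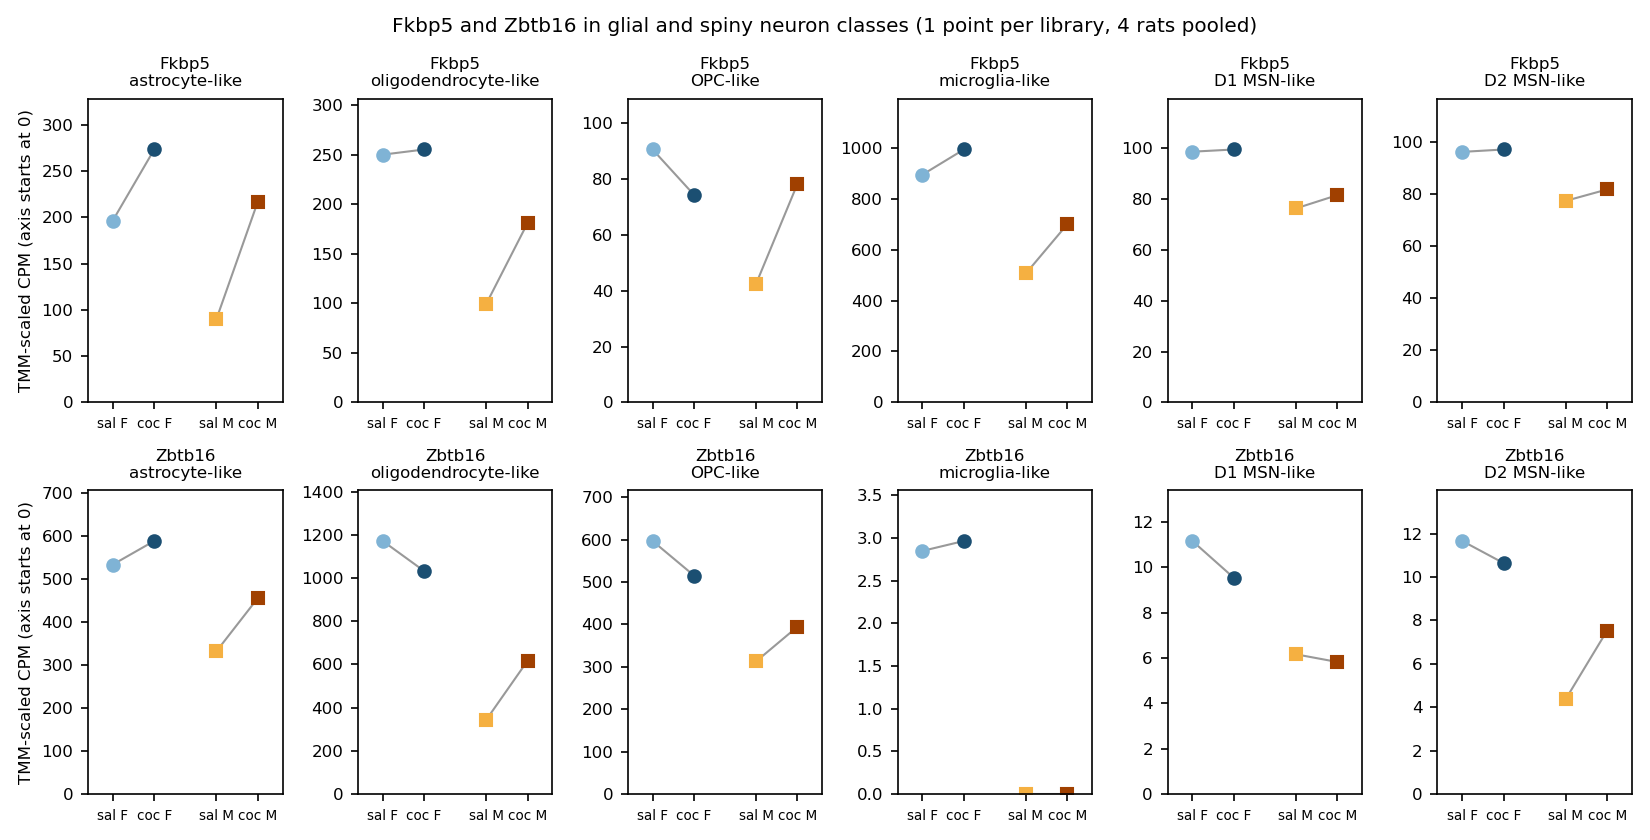
Fkbp5 (top) and Zbtb16 (bottom) in TMM-scaled CPM (y axis from 0, its scale differing by panel) for the saline and cocaine libraries of each sex (x axis), 1 point per library, in 4 glial and 2 spiny neuron classes. Fkbp5 in astrocyte-like nuclei climbs from saline to cocaine in both sexes, from 197 to 274 CPM and from 89.8 to 217 CPM, while in oligodendrocyte-like nuclei the step is seen in the male pair alone.

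In oligodendrocyte-like nuclei, Fkbp5 was 250 CPM with saline and 255 CPM with cocaine in females, and 99.3 and 181 CPM in males, from 1032, 912, 234 and 453 UMIs. The groups overlapped, and the low value was that of the saline male library. The fit over both sexes gave a rise of 1.32-fold (log2 0.40, SE 0.10, edgeR adjusted p = 0.0124). The log2 ratio was 0.03 in females (counting interval -0.10 to 0.16) and 0.86 in males (0.64 to 1.10). Without the saline male library the value was -0.18, and it was 1.15 without the saline female, 0.05 without the cocaine female and 0.54 without the cocaine male library. One of the 3 oligodendrocyte-like clusters, with less Fkbp5 (57.7 to 169 CPM, unscaled), made up 2.27% and 3.98% of the class in the female pair and 9.94% and 7.63% in the male pair. In the largest cluster alone the value was 0.34 (edgeR adjusted p = 0.165).

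The same library was lowest in nearly every class. Fkbp5 had its lowest value in the saline male library in 10 of 11 classes, the Kit/Pthlh-led class being the exception. The classes of 1 library share their rats and their library preparation, so these are not 10 independent observations. In microglia-like nuclei Fkbp5 was 894, 993, 507 and 700 CPM, higher with cocaine in each sex but overlapping between groups, and did not pass (log2 0.30, SE 0.14, edgeR adjusted p = 0.570). OPC-like nuclei had 90.6, 74.3, 42.5 and 78.3 CPM (log2 0.19, SE 0.21), with ratios of opposite sign in the sexes. Of the neuronal classes, eccentric MSN-like nuclei (64.4, 81.7, 64.4 and 72.8 CPM) and glutamatergic-like nuclei (44.7, 54.2, 31.8 and 73.0 CPM) had both cocaine libraries above both saline libraries, and neither passed (edgeR adjusted p = 0.626 and 1.0). Over the 11 classes the Fkbp5 difference ran from -0.51 to 0.81.

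The second comparison set the cocaine effect in each glial class against that in spiny neurons, D1 and D2 MSN-like nuclei together, with the library as a block. In spiny neurons Fkbp5 did not pass, with 98.7, 99.6, 76.4 and 81.6 CPM in those of D1 type (log2 0.06, SE 0.08). Those of D2 type had 96.1, 97.1, 77.3 and 81.7 CPM (log2 0.04, SE 0.08). The cocaine effect on Fkbp5 was larger in astrocyte-like nuclei than in spiny neurons by 0.78 on the log2 scale (SE 0.14, edgeR adjusted p = 0.00157). It was the only 1 of 24 member tests to pass, against 0.241% of all genes in the astrocyte-like fit. In oligodendrocyte-like nuclei the Fkbp5 difference from spiny neurons was 0.33 (SE 0.11, edgeR adjusted p = 0.205), in OPC-like 0.14 (SE 0.22) and in microglia-like nuclei 0.26 (SE 0.18). The shares of all genes that passed in those fits were 0.587%, 0.0906% and 0.078%. The astrocyte-like difference ran from 0.43 to 1.21 when 1 library was left out, passing only without the saline female library, and DESeq2 did not pass it. No other member passed in this comparison. Zbtb16 came to 0.29 (SE 0.16) in astrocyte-like and 0.24 (SE 0.16) in oligodendrocyte-like nuclei.

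Zbtb16 in oligodendrocyte-like nuclei was 1173 CPM with saline and 1033 CPM with cocaine in females, and 343 and 617 CPM in males, from 4842, 3694, 809 and 1545 UMIs. The cocaine library was the lower of the female pair and the higher of the male pair, and the groups overlapped. The fit called a rise of 1.24-fold (log2 0.31, SE 0.08, edgeR adjusted p = 0.0139). The log2 ratio was -0.18 in females (counting interval -0.24 to -0.12) and 0.85 in males (0.72 to 0.97). In this class the prior degrees of freedom were infinite, so the SE came from the trend over all genes and not from the spread of Zbtb16 itself. Without one saline library the value was 1.27 (female left out) or -0.49 (male left out), and without one cocaine library -0.28 or 0.45. With RLE scaling in place of TMM the value was 0.30 (edgeR adjusted p = 0.126). The cluster of less Zbtb16 (111 to 290 CPM, unscaled) is the same that was more frequent in male libraries, and in the largest cluster alone the value was 0.33 (edgeR adjusted p = 0.0353). The thinned share of oligodendrocyte-like nuclei with a Zbtb16 UMI was 63.0% in both female libraries, 25.6% in the saline male and 38.9% in the cocaine male library, against 0% to 0.485% in microglia-like nuclei, with exact upper bounds of at most 3.62%. Without thinning it was 80.9%, 78.7%, 35.7% and 49.2%, at median depths of 2000, 1694, 1622 and 1512 UMIs, and 0% to 0.498% in microglia-like nuclei at 1150 to 1747 UMIs.

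**Figure D4:**
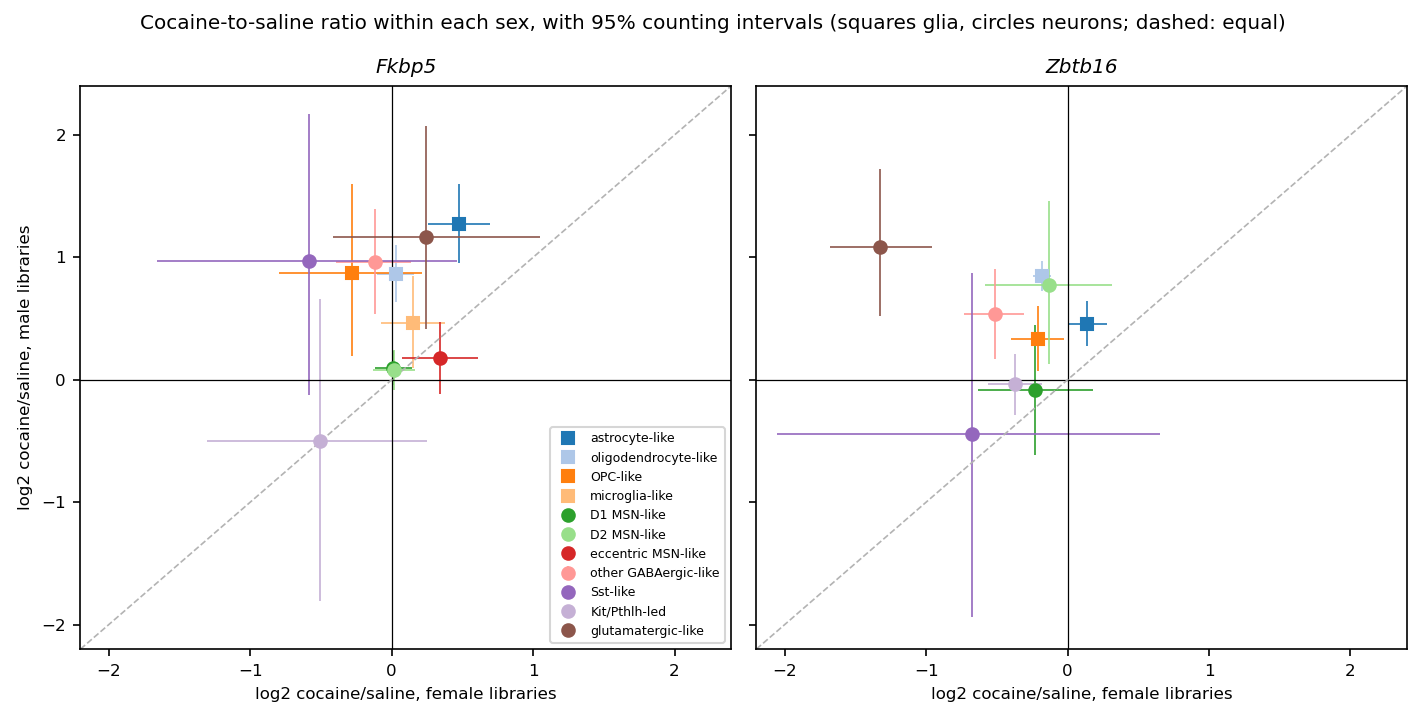
Log2 ratio of cocaine to saline in the female libraries (x axis) against the male libraries (y axis) for Fkbp5 and Zbtb16, 1 point per tested class, with 95% counting intervals of 1 library per treatment, squares for glia and circles for neurons. Most points lie above the dashed line of equal ratios, and 4 classes of Zbtb16 have intervals below 0 in females and above 0 in males.

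In other classes Zbtb16 did not pass. Astrocyte-like nuclei had 533, 588, 331 and 455 CPM, higher with cocaine in each sex, at log2 0.30 (SE 0.11, edgeR adjusted p = 0.200). In OPC-like nuclei the values were 597, 515, 313 and 395 CPM and the difference was 0.04 (SE 0.10). Kit/Pthlh-led nuclei had 518, 401, 403 and 392 CPM, with both cocaine libraries below both saline libraries by a small margin (log2 -0.21, SE 0.12, edgeR adjusted p = 0.599). D1 MSN-like nuclei had 11.2, 9.55, 6.17 and 5.83 CPM (log2 -0.16, SE 0.19).

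Sgk1, the kinase gene, passed in none of the 9 classes tested. In oligodendrocyte-like nuclei its values were 339, 431, 312 and 304 CPM, high in the cocaine female library alone (log2 0.18, SE 0.09, edgeR adjusted p = 0.429). In spiny neurons the 4 libraries were close together, with 265, 272, 257 and 254 CPM in D1 MSN-like nuclei (log2 0.02, SE 0.07) and 279, 268, 256 and 250 CPM in D2 MSN-like nuclei (log2 -0.05, SE 0.07). Glutamatergic-like nuclei had 80.1, 59.4, 165 and 71.2 CPM, lower with cocaine in each sex, and did not pass (log2 -0.86, SE 0.28, edgeR adjusted p = 1.0). That class held 30, 252, 49 and 116 nuclei in the 4 libraries.

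Per1 could be tested in 2 classes. In oligodendrocyte-like nuclei it was 3.15, 4.2, 2.12 and 4.00 CPM from 13, 15, 5 and 10 UMIs, with both cocaine libraries above both saline libraries (log2 0.60, SE 0.52, edgeR adjusted p = 0.756). For D1 MSN-like nuclei the values were 1.5, 1.4, 1.71 and 1.38 CPM (log2 -0.20, SE 0.43, edgeR adjusted p = 0.945).

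The receptor genes did not pass in any class. The fitted Nr3c2 difference was negative in all 11 tested classes, from -0.32 to -0.15 on the log2 scale. In 7 of them both cocaine libraries lay below both saline libraries. An unnamed cluster led by Stac, Adamtsl1 and Drd3, of 42 to 108 nuclei per library, was not tested and went the other way in each sex. Its Nr3c2 was 256, 472, 296 and 347 CPM (not TMM-scaled). Over all tested pairs of gene and class, 17.6% had both cocaine libraries below and 16.7% above both saline libraries. In D1 MSN-like nuclei Nr3c2 was 279, 250, 284 and 245 CPM (log2 -0.18, SE 0.07, edgeR adjusted p = 0.444). Its values among D2 MSN-like nuclei were 348, 300, 330 and 295 CPM (log2 -0.19, SE 0.07, edgeR adjusted p = 0.341). In astrocyte-like nuclei it was 470, 392, 461 and 396 CPM (log2 -0.23, SE 0.11, edgeR adjusted p = 0.455). The unadjusted p was under 0.05 in 4 of the 11 classes, and the classes share the same 4 libraries. With only the largest cluster of each class, an alternative chosen after seeing the data, Nr3c2 passed in D1 MSN-like nuclei (log2 -0.25, edgeR adjusted p = 0.0499). Nr3c1 had a negative difference in 8 and a positive one in 2 of 10 classes tested, from -0.31 to 0.16, and no unadjusted p under 0.05. In astrocyte-like nuclei it was 417, 366, 479 and 437 CPM (log2 -0.15, SE 0.11), and in D1 MSN-like nuclei 149, 147, 153 and 150 CPM (log2 -0.02, SE 0.08).

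The third comparison was between the sexes, with treatment as a covariate, in 4 large classes: D1 and D2 MSN-like, astrocyte-like and oligodendrocyte-like nuclei. Eccentric MSN-like (1955) and other GABAergic-like nuclei (1887) outnumbered astrocyte-like ones (1731) but were not compared between the sexes. Of 21 member tests 5 passed, all lower in the male libraries and all in glia. Of all genes, 6.09% passed in oligodendrocyte-like, 1.5% in astrocyte-like nuclei, and 0.542% (D1) and 0.645% (D2) in spiny neurons. Zbtb16 in oligodendrocyte-like nuclei was 2.35-fold lower in males (log2 -1.23, SE 0.08, edgeR adjusted p = 2.54e-49), and both male libraries (343 and 617 CPM) lay below both female libraries (1173 and 1033 CPM). In the same class Fkbp5 was lower by 0.87 (SE 0.10, edgeR adjusted p = 5.53e-15) and Sgk1 by 0.30 (SE 0.09, edgeR adjusted p = 0.0175). In astrocyte-like nuclei Fkbp5 was lower by 0.66 (SE 0.13, edgeR adjusted p = 5.3e-05) and Zbtb16 by 0.52 (SE 0.11, edgeR adjusted p = 3.14e-04). The values of Fkbp5 overlapped between the sexes in astrocyte-like nuclei, where the cocaine male library (217 CPM) lay above the saline female one (197 CPM).

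In D1 MSN-like nuclei Fkbp5 differed by -0.33 (SE 0.08, edgeR adjusted p = 0.083) and Zbtb16 by -0.78 (SE 0.19, edgeR adjusted p = 0.0812), and neither passed. One of the 2 D1 MSN-like clusters, with up to 24.4 CPM of Zbtb16 (saline female, unscaled), made up 26.5%, 39.6%, 43.8% and 32.2% of the class. In the other, largest cluster alone the Zbtb16 difference was -0.19 (edgeR adjusted p = 0.822), while that of Fkbp5 was -0.43 and passed (edgeR adjusted p = 0.000636). Zbtb16 differed by -0.89 in D2 MSN-like nuclei (SE 0.23, edgeR adjusted p = 0.0929). It passed under 3 alternatives in D1 and 6 in D2 MSN-like nuclei. Between the saline libraries, Fkbp5 and Zbtb16 were each lower in the male one in 11 of 11 classes, and between the cocaine libraries in 7 and 8 of 11. Some of the saline differences were minimal. Zbtb16 had 1 and 0 UMIs in microglia-like, 4 and 0 UMIs in eccentric MSN-like and 40.01 and 39.87 CPM in Sst-like nuclei. Fkbp5 had 64.41 and 64.37 CPM in eccentric MSN-like nuclei. All classes share the same libraries, and the share of all genes with such a pattern was not counted. Nr3c1 and Nr3c2 did not pass in any of the 4 classes. A male and a female library are each 1 pool of 4 rats per treatment, and sex cannot be told apart from other differences between the pools. The fits between the sexes with 1 library left out had no treatment covariate and unequal treatments in the sexes. Zbtb16 in oligodendrocyte-like nuclei passed without each library in turn (log2 -0.82 to -1.68). It did not pass with DESeq2, which passed 0 of the 21 tests (6 had an unadjusted p under 0.05). Fkbp5 and Zbtb16 in astrocyte-like nuclei lost the call without any 1 library (log2 -0.10 to -1.39 and -0.29 to -0.76). Sgk1 passed only without the saline female library (-0.48), and Fkbp5 in oligodendrocyte-like nuclei lost the call only without the saline male library (-0.47).

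Other genes of the pathway were counted in the same fits. A list of 32 further glucocorticoid targets, 30 of them matched, gave 158 tests over the 11 classes. Of these, 2 passed, both higher, and 30 had an unadjusted p under 0.05. By class, 0% to 1.82% of all genes passed and 2.61% to 10.8% had an unadjusted p under 0.05. The same shares apply to the cocaine tests of the lists that follow. Cebpb, a transcription factor of the C/EBP family, rose in astrocyte-like nuclei. It had 8.00, 29.2, 12.3 and 27.1 CPM (log2 1.5, SE 0.34, edgeR adjusted p = 0.00169), and the groups did not overlap. Irs2, an adaptor of the insulin receptor, rose in D1 MSN-like nuclei, with 34.0, 52.5, 25.6 and 34.6 CPM (log2 0.54, SE 0.10, edgeR adjusted p = 0.0153). In that case the highest saline value was just below the lowest cocaine value. Cebpb lost its call without the cocaine female, the saline female or the cocaine male library, and Irs2 without each of the 4.

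The targets with the highest counts did not pass. In astrocyte-like nuclei the 24 targets tested had a median difference of -0.06, against 0.003 for all genes. Mertk, a phagocytic receptor, was 816, 876, 770 and 759 CPM (log2 0.05, SE 0.10), Glul, glutamine synthetase, 480, 437, 529 and 473 CPM (log2 -0.14, SE 0.11), and Klf9, a Krüppel-like factor, 325, 321, 338 and 302 CPM (log2 -0.08, SE 0.11). In oligodendrocyte-like nuclei the 20 targets tested had a median of 0.19, against 0.005 for all genes, and none passed with edgeR or DESeq2. With edgeR 4 had an unadjusted p under 0.05, against 10.8% of all genes in that class. Errfi1, an inhibitor of the EGF receptor, was 194, 249, 168 and 177 CPM there (log2 0.24, SE 0.10, edgeR adjusted p = 0.270). The median was 0.12 (D1, 20 targets) and 0.09 (D2, 18 targets) in spiny neurons and 0.34 in microglia-like nuclei (9 targets).

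Between the sexes, 5 of 82 tests of these targets passed, all lower in males. Tested were 20 targets in oligodendrocyte-like, 24 in astrocyte-like, 20 (D1) and 18 (D2) in MSN-like nuclei. The shares of all genes that passed were 6.09%, 1.5%, 0.542% and 0.645%. In oligodendrocyte-like nuclei 3 targets passed: Pdk4, a mitochondrial kinase (log2 -0.84, edgeR adjusted p = 1.69e-07), Htra1, a secreted protease (-0.64, 1.92e-08), and Errfi1 (-0.34, 0.0181). Hif3a, of the hypoxia-inducible factor family, was lower in male astrocyte-like nuclei (-0.75, 2.46e-05). Irs2 was lower in male D1 MSN-like nuclei (-0.51, 0.0245). With 1 library left out, Pdk4 and Htra1 lost the call only without the saline male library (log2 -0.72 and -0.43). Errfi1 (-0.14 to -0.53) and Hif3a (-0.58 to -0.92) passed only without the saline female library. Irs2 (-0.18 to -0.80) lost the call when either the saline male or the cocaine female library was left out. None of these fits had a treatment covariate, so the rise of Irs2 after cocaine enters its values. In the largest oligodendrocyte-like cluster alone Errfi1 was -0.25 and did not pass.

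Of 17 receptor chaperones and cofactors, giving 155 tests, 1 passed. Hsp90aa1, the inducible form of the chaperone that holds the receptor ready for hormone, rose in oligodendrocyte-like nuclei, with 135, 169, 107 and 161 CPM (log2 0.46, SE 0.11, edgeR adjusted p = 0.00393). Both cocaine libraries lay above both saline libraries, and the call was lost when any 1 library was left out. Ncoa2, a receptor coactivator, was 407, 338, 369 and 309 CPM in the same nuclei and did not pass (log2 -0.25, SE 0.09, edgeR adjusted p = 0.165). Between the sexes 1 of 60 tests of this list passed, in oligodendrocyte-like nuclei, where 15 were tested and 6.09% of all genes passed. It was Stip1, which links the HSP70 and HSP90 chaperones, lower in male libraries (log2 -0.73, edgeR adjusted p = 8.49e-06). Without the saline male library the value was -0.60 and did not pass.

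Of 14 matched clock genes, giving 131 tests, 1 passed. Per2, the paralog of Per1, rose in D1 MSN-like nuclei, from 49.6 to 71.5 CPM in the female and from 32.0 to 45.3 CPM in the male libraries (log2 0.52, SE 0.09, edgeR adjusted p = 0.00917). Its saline female value (49.6 CPM) was above its cocaine male value, so the groups overlapped, and it lost the call without each library. Per3 in oligodendrocyte-like nuclei was 397, 470, 365 and 446 CPM (log2 0.28, SE 0.09, edgeR adjusted p = 0.0691). Between the sexes 2 of 56 clock gene tests passed, both lower in males, with 14 tests in each class. Per2 passed in D1 MSN-like nuclei (log2 -0.65, edgeR adjusted p = 0.00121), where 0.542% of all genes passed. Cry1 passed in oligodendrocyte-like nuclei (log2 -0.55, edgeR adjusted p = 0.0119), where 6.09% passed. Per2 lost its call between the sexes when the saline male (-0.42) or the cocaine female library (-0.37) was left out. Cry1 lost its call without any 1 library (-0.34 to -0.79). These fits had no treatment covariate, so the rise of Per2 after cocaine enters its values.

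For scale, 8 immediate-early genes, which neurons transcribe within minutes of activation, gave 41 tests, of which 6 passed, all higher, 4 of them in neurons. Nr4a3, an orphan nuclear receptor, differed by 2.04 (SE 0.11) in D1 MSN-like nuclei, where Fkbp5 differed by 0.06, and was lower in males there (log2 -0.60, edgeR adjusted p = 0.01), a difference that turned to 0.15 with the saline male library left out and to 0.67 with the cocaine female one left out. After cocaine Nr4a3 also passed in D2 MSN-like (log2 1.44) and eccentric MSN-like nuclei (1.68), and thinning to 1000 UMIs ended both calls. Junb, an AP-1 subunit, passed in D2 MSN-like nuclei (log2 0.575), though not with DESeq2, among other alternatives. In astrocyte-like nuclei Nr4a3 rose from 4.67 to 23.9 CPM in the female and from 5.37 to 11.2 CPM in the male libraries (log2 1.81, SE 0.44, edgeR adjusted p = 0.00439). The general MSN markers were also higher with cocaine in these astrocyte-like sums, as given above, and their part in the Nr4a3 result was not tested. Junb rose in oligodendrocyte-like nuclei, from 2.18 to 8.95 CPM and from 2.12 to 4.79 CPM (log2 1.75, SE 0.48, edgeR adjusted p = 0.0279). Both calls were lost when any 1 library was left out (log2 1.16 to 2.24 for Nr4a3 and 1.15 to 2.04 for Junb) and with DESeq2. Against spiny neurons neither of these differences passed (edgeR adjusted p = 1.0 for Nr4a3 and 0.17 for Junb). In OPC-like nuclei the Nr4a3 effect was lower than in spiny neurons by 2.77 (SE 0.61, edgeR adjusted p = 0.00975), from 10, 4, 8 and 4 UMIs, and this call too was lost without any 1 library.

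The genes whose saline levels were most like those of each member over the 11 classes were found by Pearson's r of log2(CPM + 1) among 7346 named genes of at least 20 CPM on average, as a description without a test. For Fkbp5 they were Atg10 (r = 0.969), Pdpk1 (0.963) and Arid1a (0.957). For Zbtb16 they were Slc35f5 (0.923), Cdan1 (0.901) and Cyb5r4 (0.893), and for Sgk1 Arhgap20 (0.919), Ppp1r16b (0.874) and Abcg1 (0.837). Nr3c1 was most like Lrp10 (0.954), Hmg20b (0.927) and Rmi1 (0.927), and Nr3c2 most like Elk1 (0.955), Cdkl3 (0.925) and Sorcs2 (0.905). For Per1 they were Mpp5 (0.941), Phf7 (0.915) and Nubpl (0.911), values that rest on a few Per1 UMIs per class. The 11 points share the same 2 saline libraries.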

How the data were processed

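The authors deposited, for each of 4 libraries, a matrix of raw UMI counts per gene and nucleus, made with Cell Ranger 6.1.2 per the file headers, on build rn7 per the submitters' processing notes. Chemistry was 10x Genomics 3′ v3, per the labels' protocols. Which annotation was used is not given in the sources used here. Reads of overlapping genes or close paralogs may have been shared out by the counting.

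Barcodes below 200 genes or above 5% mitochondrial UMIs were dropped, and the highest Scrublet scores were removed as doublets (scanpy 1.11.5, 0.8% per 1000 barcodes, 4.97% to 5.81%). Of 26228 barcodes, 4 failed the filters and 1381 were removed. Clustering (2000 variable genes without the listed genes, 30 components, 15 neighbours, leidenalg 0.10.2, resolution 0.5) was followed by naming from marker lists, with score limits set after the data were seen.

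Counts were summed per library and class and tested with edgeR 4.0.16 (quasi-likelihood, TMM, filterByExpr, R 4.3.3), leaving 1 residual degree of freedom per gene. Prior degrees of freedom were infinite in astrocyte-like, oligodendrocyte-like, OPC-like, microglia-like and Sst-like sums and 17.5 in D1 MSN-like sums. P-values refer to differences between pools of rats. In the classes with infinite prior degrees of freedom they rest on the trend over all genes, not on a gene's own spread between pools. Ratios within a sex add 0.5 to each count, with exact 95% intervals that cover counting error only. A count of 0 is given the limit of 3 counts. Fits were tested on simulated data in which all genes had the same dispersion and none a sex effect. That test does not cover ratios that differ between the sexes. The alternatives were RLE scaling, DESeq2 1.42.0, no filter, no covariate, each library left out, no doublet removal, resolution 1.0, a gate on markers per nucleus, thinning to 1000 UMIs and, chosen after seeing the data, robust empirical Bayes and the largest cluster of each class.

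The text names all members in every class or by their range, of other lists the genes that passed and up to 4 of the highest counts, and for each member the 3 genes of most similar level. The members and lists were chosen with earlier results of these data known.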

Additional observations from a re-analysis of the deposited data

Results flagged for a closer look

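In 5 pairs of gene and class the cocaine-to-saline log2 ratio had opposite signs in the female and male libraries, with both 95% counting intervals away from 0. The difference between the sexes was not tested, since there is 1 library per sex and treatment. For Zbtb16 the female and male ratios were -0.18 and 0.85 in oligodendrocyte-like, -0.21 and 0.34 in OPC-like, -0.51 and 0.54 in other GABAergic-like and -1.33 and 1.08 in glutamatergic-like nuclei. For Nr3c1 in other GABAergic-like nuclei they were -0.38 and 0.57. In each of the 4 classes of Zbtb16 the saline female library was the highest and the saline male library the lowest of the 4. The glutamatergic-like class held 30 (saline) and 252 (cocaine) nuclei in the female pair and 49 and 116 in the male pair.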

How the results depend on the processing

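Members past the threshold for cocaine numbered 3, and 1 with RLE scaling, without doublet removal, with the gate per nucleus or thinned to 1000 UMIs (Fkbp5 in astrocyte-like nuclei each time), 0 without the covariate or with DESeq2, and 0 to 3 with 1 library left out, where the lone library of a group is assumed to vary like the other group. For the difference between glia and spiny neurons the count was 1, and 0 with DESeq2, without the covariate, without doublet removal or thinned, and 0 to 2 with 1 library left out. For the glucocorticoid targets it was 2, and 1 at resolution 1.0 or without doublet removal, 0 with DESeq2, without the covariate or thinned, and 0 to 2 with 1 library left out. Between the sexes it was 5, and 8 without the filter, 3 thinned, 1 without the covariate, 0 with DESeq2 and 1 to 4 with 1 library left out. With DESeq2, 1, 0, 2 and 6 of these tests had an unadjusted p under 0.05. The cause of these shifts was not tested, beyond fewer samples or genes. With 1 library left out the direction turned for Fkbp5 (log2 -0.18 to 1.15) and Zbtb16 (-0.49 to 1.27) in oligodendrocyte-like nuclei. It also turned for Nr4a3 between the sexes in D1 MSN-like nuclei (-2.07 to 0.67). The Nr4a3 fits had no treatment covariate, so sex and cocaine cannot be told apart in them. Of 404 values of the 29 calls under alternatives, 230 stayed past the threshold in the same direction, 169 no longer passed and 5 turned. Sex pairs 1 saline with 1 cocaine library, so the fit with sex as a covariate is the paired one, and the counts without the covariate above are the unpaired ones.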

Other observations

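Clusters that were not tested, being unnamed or too small, also held members. In the unnamed cluster led by Stac, Adamtsl1 and Drd3, Sgk1 was 288, 518, 377 and 471 CPM (not TMM-scaled), higher with cocaine in each sex. In an unnamed cluster led by Mrc1, Cd163 and F13a1, of 7, 6, 23 and 12 nuclei (female pair first, saline before cocaine), Fkbp5 was 253, 806, 63.3 and 795 CPM (not TMM-scaled), higher with cocaine in each sex but from few UMIs. Zbtb16 in the same cluster was 354, 907, 158 and 557 CPM. In an unnamed cluster led by Cdc45, Mecom, Cyyr1 and Adgrl4, among others, of 15 to 22 nuclei per library, Zbtb16 was 940, 679, 1414 and 818 CPM. In vascular-like nuclei, 10 to 35 per library, Zbtb16 was 822, 1059, 711 and 628 CPM, a level in the range of the glial classes. Nr3c2 there had 0 UMIs in the saline female library and 13 to 23 in the others.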
